A study of Mus musculus with 19 samples.

Results

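Perilipins 1 to 5 and 5 other proteins of the fat droplet surface were followed in mouse perigonadal fat, the fat around the gonads. The 10 genes were chosen by symbol: the perilipins Plin1 to Plin5, Cidec, the FIT proteins Fitm1 and Fitm2, seipin (Bscl2) and caveolin-1 (Cav1). They are 10 of the 24348 genes in the files, and all 10 passed the filter on low counts that left 16015 genes for testing. The mice were C57BL/6, made to gain weight in either of 2 ways, and RNA of whole tissue was sequenced in 19 libraries of 4 groups. HFD fed (titled ALO, n = 4) and Ensure fed (titled OIO, n = 6) were sampled at peak weight, on a diet of 60% fat or on Ensure. HFD fasted (ALOneg, n = 4) and Ensure fasted (OIOneg, n = 5) had spent 24 hours without food. Diet below stands for the whole model. The labels name no sex or age and do not say whether each library is its own animal, so the spread behind each p-value may be technical.

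A fat droplet is a core of triglyceride under a single layer of phospholipid, and the proteins on that layer decide how easily lipases reach the core. In fed white fat cells Plin1 coats the droplet and holds Abhd5, the activator of the lipase Pnpla2 (ATGL), and phosphorylation of Plin1 in fasting releases it. Plin2 coats droplets in most other cell types, foamy macrophages among them, Plin3 and Plin4 move onto droplets from the cytosol, and Plin5 is known from heart, muscle, liver and brown fat, where it links droplets to mitochondria. Cidec (FSP27) joins small droplets into large ones, FIT proteins and seipin act in the endoplasmic reticulum where droplets form, and Cav1 builds the caveolae of the fat cell membrane and also reaches droplets. Loss of seipin or caveolin-1 is a known cause of lipodystrophy.

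The DNA before the starts of 4 of these genes shows the regions nearest to where their transcripts begin. Plin5 and Bscl2 are shown because they changed with fasting, Plin4 because it is the next gene to Plin5 on the chromosome, and Plin2 because its window shares a motif with that of Plin5. Each is the 250 bases before the outermost start listed by RefSeq on GRCm38.p6, a later build than the one the reads were counted on. Capitals mark matches on either strand to AGGTCA (the core that nuclear receptors bind), CCAAT or GGGCGG (the GC box). The windows are chr17:56117549-56117798 on the minus strand, chr17:56109783-56110032 on the minus strand, chr19:8837217-8837466 on the plus strand and chr4:86670060-86670309 on the minus strand.
Plin5: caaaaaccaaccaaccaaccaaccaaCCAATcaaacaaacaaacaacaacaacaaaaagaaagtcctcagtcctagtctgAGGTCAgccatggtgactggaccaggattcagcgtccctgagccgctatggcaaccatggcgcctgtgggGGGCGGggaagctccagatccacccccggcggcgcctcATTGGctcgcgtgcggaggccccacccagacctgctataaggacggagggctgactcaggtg
Plin4: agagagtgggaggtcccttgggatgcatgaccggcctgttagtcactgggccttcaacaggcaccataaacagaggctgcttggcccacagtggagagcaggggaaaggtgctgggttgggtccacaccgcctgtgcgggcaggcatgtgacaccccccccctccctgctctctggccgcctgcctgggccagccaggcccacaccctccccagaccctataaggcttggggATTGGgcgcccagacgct
Bscl2: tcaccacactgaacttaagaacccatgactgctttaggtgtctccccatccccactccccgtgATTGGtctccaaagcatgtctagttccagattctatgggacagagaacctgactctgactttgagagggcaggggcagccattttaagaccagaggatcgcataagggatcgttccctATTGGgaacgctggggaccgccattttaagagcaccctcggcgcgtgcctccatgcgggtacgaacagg
Plin2: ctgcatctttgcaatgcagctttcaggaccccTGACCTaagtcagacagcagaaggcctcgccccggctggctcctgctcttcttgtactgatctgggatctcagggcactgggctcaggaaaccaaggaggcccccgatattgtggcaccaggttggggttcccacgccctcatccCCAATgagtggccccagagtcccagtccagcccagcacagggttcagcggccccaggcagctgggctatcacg
Plin5 holds AGGTCA 170 bases before its start and Plin2 holds it on the opposite strand 218 bases before, and the other 8 windows hold none. Of 27025 RefSeq promoters cut to the same length, 13.8% hold AGGTCA, 34.5% CCAAT and 33% GGGCGG, so these matches are common. Bscl2 and Plin5 each hold CCAAT at 2 places, and Plin4 holds it once. None of the 10 windows held the E-box CACGTG, the cAMP element core TGACGT, the FoxO core GTAAACA or the C/EBP site TTGCGCAA. A match describes letters in the window, not a bound site.

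The libraries held 12.82 to 22.55 M counts in genes, and 3 counts equal 0.133 to 0.234 counts per M (CPM). Adipocyte markers summed to 19460 to 53530 CPM per library, with the lowest sum in Ensure fasted 5. Some libraries also carried genes of the male reproductive tract and of epithelium. The 15 tract markers summed to more than 200 CPM in HFD fasted 24, in 2 Ensure fed libraries (10 and 12) and in 2 Ensure fasted ones (2 and 5), and to no more than 79.7 CPM elsewhere. The highest sum was 9913 CPM, in Ensure fasted 5. HFD fed 21, HFD fasted 26 and Ensure fed 16 were besides those rich in epithelial markers (over 300 CPM). The first 5 are called tract-rich below, and calls among the 10 genes, and the counts of calls in the gene lists, are given with and without them where they differ. All HFD libraries were sequenced in lane 7 with 1 Ensure fed library, and the other Ensure libraries in lanes 5 and 6, so lane and diet can hardly be told apart. On Ensure, 4 of the 5 fasted libraries were in lane 5 and 4 of the 6 fed ones in lane 6, so lane also went with fasting there. On HFD, fed and fasted libraries shared lane 7, so lane did not go with fasting. A call lost there with lane as a term is not a difference between lanes. In whole tissue, fewer fat cells and less RNA per fat cell cannot be told apart.

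After fasting Plin5 was higher on both diets and Bscl2 lower on Ensure, and no other gene of the 10 passed the test in these 2 comparisons. Calls are at an adjusted p under 0.05 (edgeR's quasi-likelihood test, adjusted by Benjamini-Hochberg over all genes tested). On HFD 1 of the 10 was called higher, where 0.187% of all genes were, and 0 were called lower, where 1.03% of all genes were. At an unadjusted p under 0.05, 2 of the 10 were lower on HFD (Bscl2 and Cav1), where 2375 of the 16015 genes had such a p in either direction. DESeq2 called 1 of the 10 lower, where it called 634 genes in either direction. On Ensure 1 of the 10 was called higher and 1 lower, where 10.6% and 9.77% of all genes were, so that both counts are close to the background of that comparison. The median log2 fold change of the 10 was -0.18 on HFD and -0.34 on Ensure, beside medians of 0.06 and 0.11 over all genes tested.

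**Figure D1:**
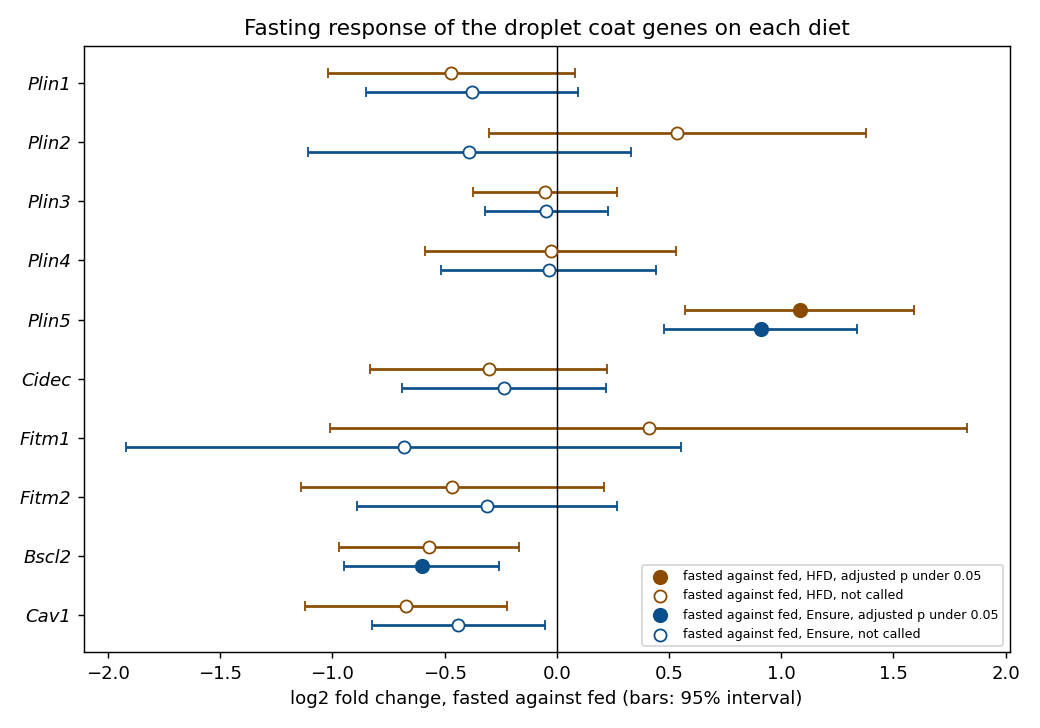
Log2 fold change from fed to fasted for each of the 10 genes (x axis, log2 scale) on HFD (brown) and Ensure (blue), with 95% intervals and filled points where the adjusted p was under 0.05. Plin5 lies at 1.08 and 0.91 with intervals above 0, Bscl2 at -0.57 and -0.60, and the Plin2 points lie on opposite sides of 0.

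Plin5 was the scarcest perilipin and the one that rose. It stood at 12.6, 13.5, 11.4 and 13.4 CPM in the HFD fed libraries and at 22.0, 42.0, 28.4 and 15.5 CPM in HFD fasted 23, 24, 26 and 28. Every HFD fasted library was above every HFD fed one, which held for 2.24% of all genes in that direction. The mean of 12.7 ± 0.973 CPM fed became 27.0 ± 11.3 CPM fasted (SD, n = 4 and 4), a 2.12-fold change (log2 fold change 1.08 ± 0.24 SE, edgeR adjusted p = 0.0346). In Ensure fed libraries Plin5 ran from 11.7 to 18.4 CPM with a median of 15.3 CPM, and in Ensure fasted 2, 5, 7, 8 and 17 it was at 22.9, 32.9, 36.6, 25.7 and 25.6 CPM. These groups did not overlap either, as for 5.68% of all genes in that direction. The fold was 1.88 (log2 fold change 0.91 ± 0.20, n = 6 and 5, edgeR adjusted p = 0.00514).

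The Plin5 call held under more alternatives on Ensure than on HFD. On Ensure it was kept when each of the 11 libraries was left out in turn (edgeR log2 fold change 0.80 to 0.96, adjusted p = 0.00822 to 0.0183) and without the 5 tract-rich libraries (0.91, adjusted p = 0.0177). On HFD the call was lost in 7 of 8 omissions (log2 fold change 0.79 to 1.31, adjusted p = 0.0165 to 0.15), with the lowest fold without HFD fasted 24. It was also lost without the tract-rich libraries (log2 fold change 0.78, edgeR adjusted p = 0.086) and without all 8 (0.53, adjusted p = 0.125). HFD fasted 24 and 26, the 2 libraries with the most Plin5 in their group, both had high epithelial markers, at 427 to 448 CPM of the summed markers against 14.5 to 15.5 CPM in HFD fasted 23 and 28. Ensure fasted 5 had the highest epithelial sum of all libraries, 835.6 CPM, with Plin5 at 32.9 CPM. Ensure fasted 7 had 36.6 CPM of Plin5 at a sum of 14.4 CPM, and Ensure fasted 2 had 22.9 CPM at 433.5 CPM. HFD fed 21 and Ensure fed 16 had epithelial sums of 344 and 342 CPM with Plin5 at 12.6 and 12.7 CPM. The part of epithelium in the Plin5 level was not tested. Within lane 5 Plin5 went from 14.6 CPM (1 library) to a mean of 29.5 CPM (4 libraries), and within lane 6 from a mean of 15.3 CPM (4) to 25.6 CPM (1). With lane as a term, neither rise passed (log2 fold change 1.08, adjusted p = 0.0741 on HFD and 0.88, adjusted p = 0.0986 on Ensure, edgeR). Fed and fasted HFD libraries shared a lane, and the HFD fold was the same with and without the term.

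Because Plin5 is best known from muscle and brown fat, the markers of both were read beside it. The 8 brown fat markers, Ucp1 among them, summed to 28.4 to 61.1 CPM in HFD fed and 24.7 to 37.9 CPM in HFD fasted libraries, and to 58.5 to 102.8 CPM in Ensure fed and 19.9 to 41.6 CPM in Ensure fasted ones. Their sums were thus lower after fasting on Ensure, without overlap. The 8 did not fall alike there: edgeR called 3 lower, where 9.77% of all genes were, and did not call the other 5. Mean levels went from 14.65 to 1.99 CPM for Dio2, from 18.3 to 3.31 CPM for Otop1 and from 4.39 to 5.28 CPM for Cidea. Ucp1 lay near the floor, with medians of 0.173 CPM in Ensure fed and 0.132 CPM in Ensure fasted libraries. Its highest value was 18.4 CPM, in an Ensure fed library. The 10 skeletal muscle markers summed to 15.3 to 21.5 CPM in HFD fed and 36.8 to 71.2 CPM in HFD fasted libraries, and to 20.3 to 46.4 CPM and 46.0 to 291 CPM on Ensure. Most of this was Acta1, the actin of skeletal muscle: without it the other 9 summed to 3.99 to 6.74 CPM and 4.62 to 7.13 CPM on HFD, and to 1.90 to 4.40 CPM and 4.22 to 43.8 CPM on Ensure. Acta1 was the only called marker of the 6 tested on either diet. The part of other cell types in the rise of Plin5 was not tested.

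**Figure D2:**
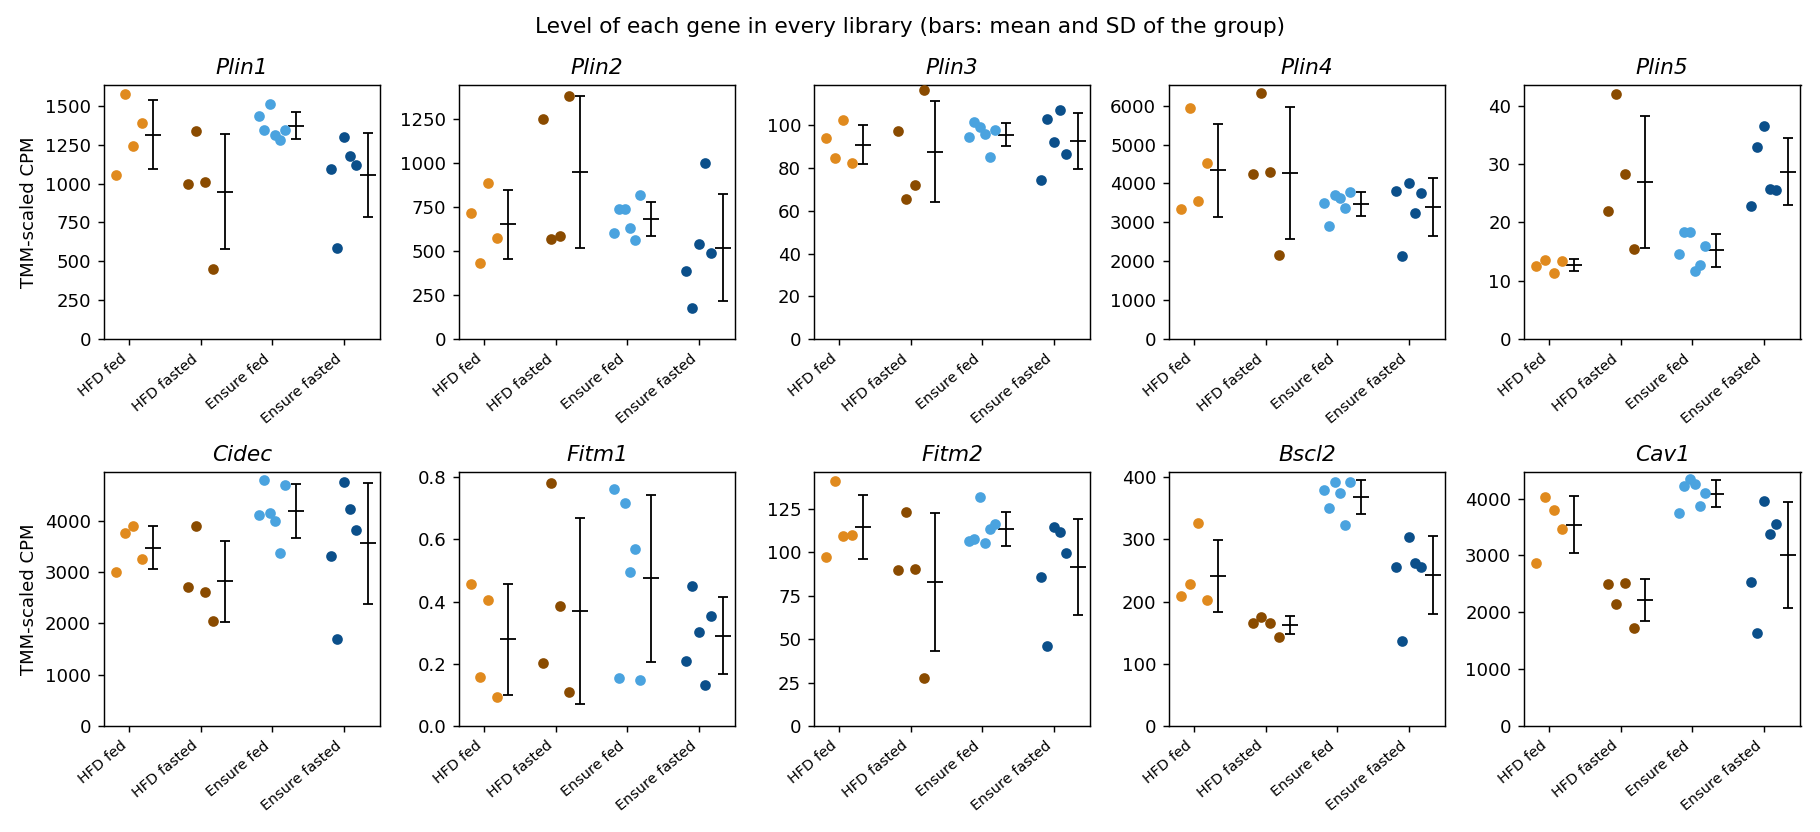
Level of each of the 10 genes in every library (y axis, TMM-scaled CPM from 0, own scale per gene), by group, with the group mean and SD beside the points. The fasted Plin5 points lie above the fed ones on both diets, Bscl2 is lower after fasting, and Plin1, Fitm2, Cidec and Cav1 share a low point in Ensure fasted 5.

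Plin1, the fat cell's own droplet coat, had lower mean levels after fasting, but the difference did not pass. It stood at 1053, 1577, 1239 and 1387 CPM in HFD fed and at 995, 1338, 1012 and 448 CPM in HFD fasted 23, 24, 26 and 28 (log2 fold change -0.47 ± 0.26 SE, edgeR adjusted p = 0.408). Ensure fed libraries ran from 1280 to 1512 CPM with a median of 1345 CPM, and Ensure fasted 2, 5, 7, 8 and 17 were at 1092, 589, 1297, 1178 and 1119 CPM (log2 fold change -0.38 ± 0.22, adjusted p = 0.231). The fed and fasted groups overlapped on both diets, and 1 library in each fasted group was far below the rest. HFD fasted 28 had the lowest level in its group for 8 of the 10 genes, and Ensure fasted 5 for 7 of the 10. Ensure fasted 5 was the library with the most tract markers, and HFD fasted 28 the one with the most macrophage markers once Lpl, also a fat cell gene, is left out. These 2 libraries also had the largest shares of reads outside genes (16.6% in Ensure fasted 5 and 17.3% in HFD fasted 28, against 13.0 to 15.3% in the others) and of reads aligned to more than 1 place (26.0% and 27.7%, against 20.7 to 23.5%), and the part of either in the low levels was not tested.

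Plin2, the coat of most cells that are not fat cells, had the largest SD of the 10 within groups on the log2(CPM + 1) scale. That SD was 0.60, against 0.22 for Plin3, the steadiest perilipin. The scale compresses Fitm1 (0.24), which lay below 1 CPM in every library. In the edgeR fit the SE of the fasting response was larger for Fitm1 (0.67 on HFD, 0.58 on Ensure) than for Plin2 (0.39 and 0.34). HFD fed libraries were at 714, 433, 888 and 573 CPM, while HFD fasted 23 and 28 reached 1251 and 1383 CPM and HFD fasted 24 and 26 stayed at 569 and 583 CPM. In Ensure fed libraries it ran from 561 to 817 CPM with a median of 685 CPM, and in Ensure fasted 2, 5, 7, 8 and 17 it was at 387, 179, 542, 1002 and 491 CPM. Ensure fasted libraries thus lay on both sides of the Ensure fed ones, while on HFD the groups overlapped and HFD fed 22 was below every fasted library. The log2 fold change was 0.54 ± 0.39 on HFD (edgeR adjusted p = 0.536) and -0.39 ± 0.34 on Ensure (adjusted p = 0.424). The difference of these responses, Ensure minus HFD, was -0.93 ± 0.52 (95% interval -2.03 to 0.18, edgeR adjusted p = 0.713).

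In each fasted group the libraries with most Plin2 also had most of the macrophage markers once Lpl was left out. Of the 12 listed, Lpl is also a fat cell gene and made up most of the sum except in HFD fasted 28. It was left out after the list was fixed. With Lpl, Ensure fasted 8 (21750 CPM) was below Ensure fasted 7 and 17 (23500 and 22370 CPM). The other 11 summed to 5801 and 10790 CPM in HFD fasted 23 and 28 and to 1263 and 2095 CPM in HFD fasted 24 and 26. In Ensure fasted 8, the highest of its group for Plin2, the sum was 3522 CPM, against 657 to 1784 CPM in the other Ensure fasted libraries. Gpnmb, a membrane protein of lipid-laden macrophages, went with it: 2388 and 4329 CPM in HFD fasted 23 and 28, 247 and 567 CPM in HFD fasted 24 and 26, 529 CPM in Ensure fasted 8 and 27.6 to 83.8 CPM in the other 4. Other markers of the 11 varied less in HFD fasted libraries: Mrc1 ran from 174 to 300 CPM and Csf1r from 225 to 510 CPM. In the fed groups the 11 markers summed to 1579 to 3414 CPM on HFD and 1229 to 1723 CPM on Ensure. Of the 12 macrophage markers edgeR called 0 with fasting on either diet, and their part in the Plin2 level was not tested. On each diet 1 of the 12 was at an unadjusted p under 0.05, where 2375 (HFD) and 5766 (Ensure) of the 16015 genes were.

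**Figure D3:**
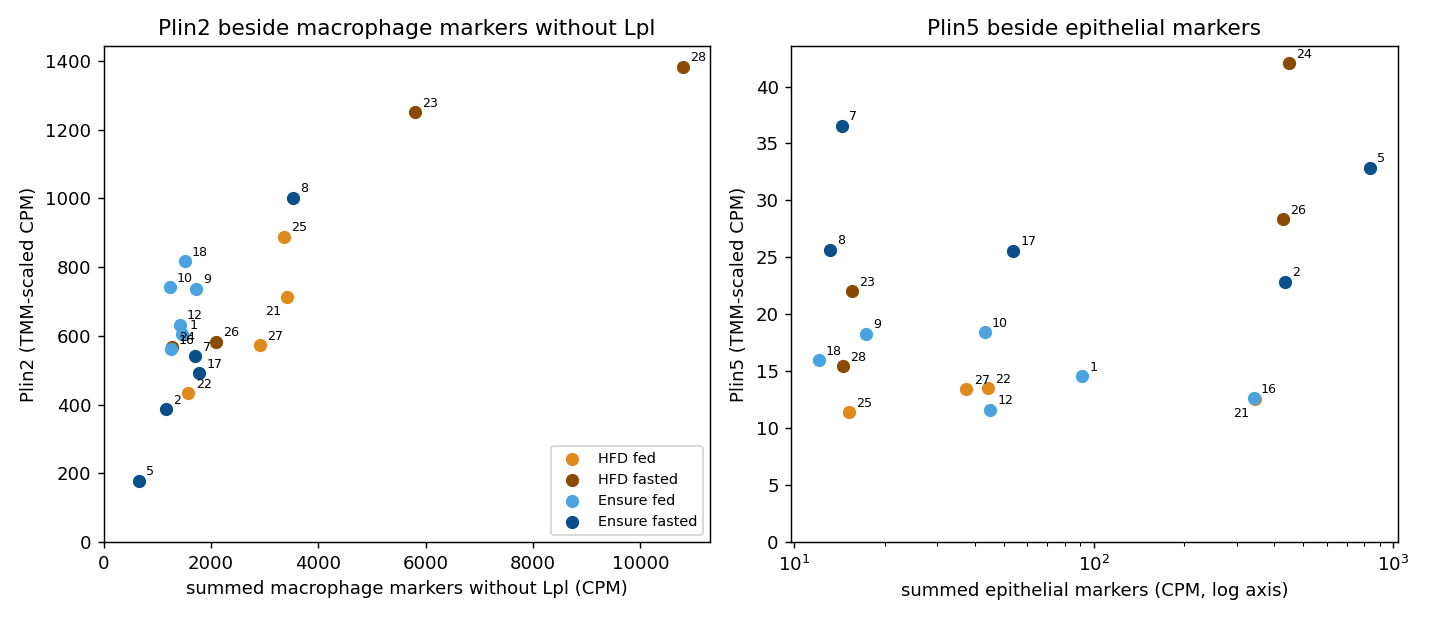
Left, Plin2 (y axis, TMM-scaled CPM) against the summed 11 macrophage markers without Lpl (x axis, CPM). Right, Plin5 (y axis, TMM-scaled CPM) against the summed 8 epithelial markers (x axis, CPM, log scale). Each point is a library, numbered and coloured by group; HFD fasted 23 and 28 lie at the top right for Plin2, and Plin5 was highest in HFD fasted 24, then Ensure fasted 7 and 5.

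Plin4 and Plin3, which move to droplets from the cytosol, differed least between fed and fasted groups. Plin4 had means of 4336 ± 1187 and 4258 ± 1694 CPM on HFD (SD, n = 4 and 4) and 3477 ± 314 and 3394 ± 753 CPM on Ensure (n = 6 and 5). Its log2 fold changes were -0.03 ± 0.26 and -0.03 ± 0.23, with 95% intervals of -0.59 to 0.53 and -0.51 to 0.44. Plin5, its neighbour on the chromosome, rose on both diets while Plin4 did not pass on either. Plin3, the perilipin that cycles between cytosol and droplets in all tissues, had means between 87.6 and 95.5 CPM in the 4 groups. Its intervals were -0.38 to 0.27 on HFD and -0.32 to 0.23 on Ensure.

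The make-up of the perilipin transcripts was compared per kilobase of exon, the scale on which levels of different genes can be set side by side. Plin4 made up 53.5 to 59.4% of the summed perilipin level in the group means, Plin1 15.9 to 26.3%, Plin2 14.1 to 23.7%, Plin3 1.97 to 2.64% and Plin5 0.495 to 1.49%. The order Plin4, Plin1, Plin2, Plin3, Plin5 held in the means of 3 groups, and in HFD fasted libraries Plin2 (269.5 ± 123 CPM per kb, SD) and Plin1 (203.9 ± 79.3 CPM per kb) changed places within their spread. Plin5 took 0.426 to 0.579% of the sum in HFD fed and 0.786 to 1.27% in HFD fasted libraries, and 0.499 to 0.845% and 1.06 to 2.66% on Ensure, without overlap on either diet. In HFD fasted 28 Plin2 made up 43.5% and Plin1 10.7% of the sum, a ratio of 4.08, where HFD fed libraries had ratios of 0.363 to 0.949 and Ensure fed ones 0.557 to 0.805. HFD fasted 23 and Ensure fasted 8 also had more Plin2 than Plin1 per kilobase, at ratios of 1.66 and 1.13, and the other 16 libraries had less. These levels use all exon bases of a gene. With the longest transcript in their place the Plin1, Plin2, Bscl2 and Cav1 levels are higher, and Plin2 exceeded Plin1 in 5 libraries, HFD fed 21 and 25 (ratios of 1.01 and 1.07) besides those 3.

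**Figure D4:**
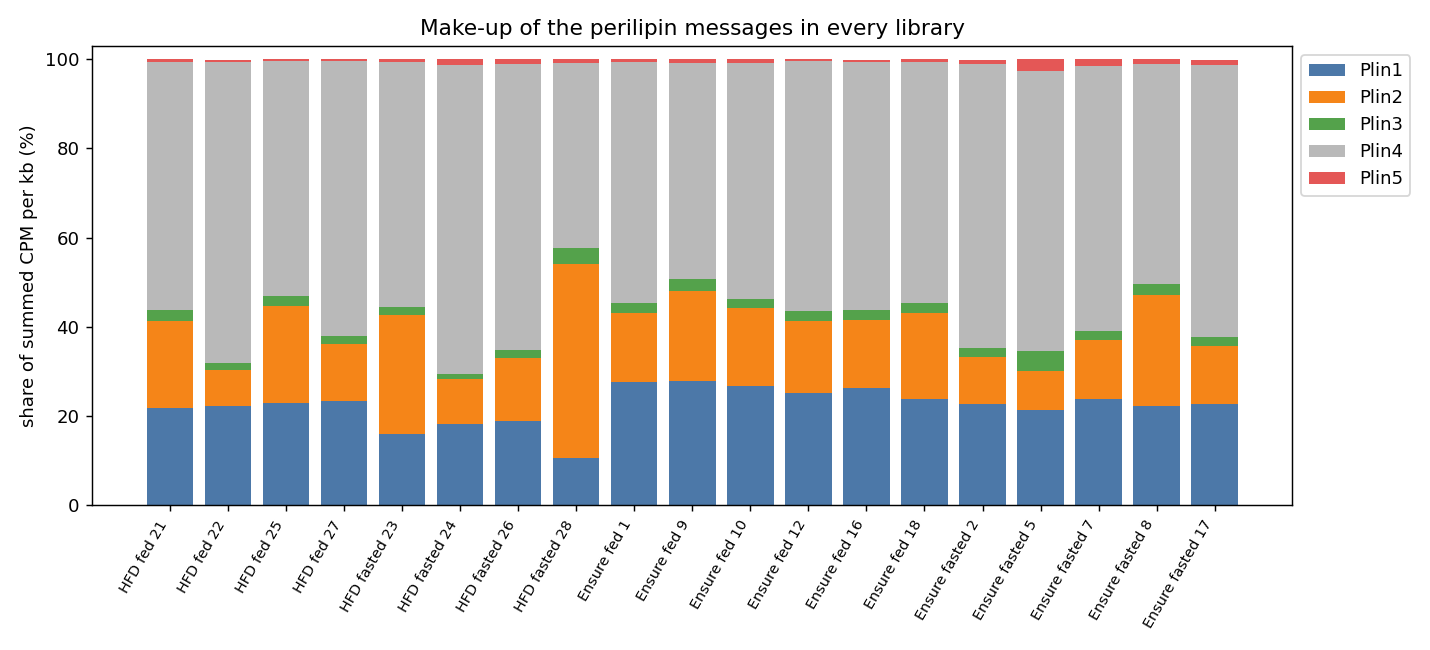
Share of each perilipin in the summed perilipin level per kilobase (y axis, %) for every library, 1 bar per library. Plin4 is the largest share in every bar except that of HFD fasted 28, where Plin2 reaches 43.5%, and the Plin5 share is thicker in fasted libraries.

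Cidec, the droplet fusion protein, had the highest level per kilobase of the 10 in every group. Its group means were 1876 ± 227 CPM per kb in HFD fed, 1520 ± 421 in HFD fasted, 2259 ± 281 in Ensure fed and 1921 ± 635 in Ensure fasted libraries (SD). In CPM it stood at 3007, 3764, 3902 and 3256 in HFD fed and at 2714, 3910, 2606 and 2052 in HFD fasted libraries (log2 fold change -0.30 ± 0.25, edgeR adjusted p = 0.583). On Ensure it ran from 3369 to 4807 CPM in fed libraries and was at 3312, 1690, 4766, 4244 and 3817 CPM in Ensure fasted 2, 5, 7, 8 and 17 (-0.23 ± 0.21, adjusted p = 0.45). Fed and fasted levels overlapped on both diets. In HFD fed libraries the order per kilobase went on from Cidec to Cav1 (1027 ± 146 CPM per kb), Plin4 (750.5 ± 205), Plin1 (283 ± 47.8), Plin2 (186 ± 55.4), Bscl2 (40.9 ± 9.72), Fitm2 (28.8 ± 4.66), Plin3 (24.0 ± 2.42), Plin5 (6.10 ± 0.47) and Fitm1 (0.286 ± 0.185). Neighbours in that order whose libraries overlapped were Cav1 and Plin4, Plin1 and Plin2, Bscl2 and Fitm2, and Fitm2 and Plin3.

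Fitm2, the FIT protein of fat and most other tissues, varied across libraries almost as Plin1 did. It was at 97.3 to 140.6 CPM in HFD fed libraries and at 89.6, 122.9, 90.4 and 27.8 CPM in HFD fasted 23, 24, 26 and 28. On Ensure it was at 105 to 132 CPM in fed libraries and at 85.8, 46.2, 115, 111 and 99.2 CPM in Ensure fasted 2, 5, 7, 8 and 17. Neither fasting response passed (log2 fold change -0.47 ± 0.32, edgeR adjusted p = 0.503 on HFD and -0.31 ± 0.27, adjusted p = 0.432 on Ensure). Fitm1, the FIT protein of skeletal muscle and heart, lay near the floor, at 2 to 18 counts per library and 0.0930 to 0.782 CPM, so that only a large change could have been read. The 95% intervals of its log2 fold change with fasting were -1.01 to 1.83 on HFD and -1.92 to 0.55 on Ensure.

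Seipin, which shapes new droplets at the endoplasmic reticulum, fell with fasting on Ensure. Bscl2 ran from 323 to 393 CPM with a median of 377 CPM in Ensure fed libraries and stood at 255, 137, 303, 263 and 255 CPM in Ensure fasted 2, 5, 7, 8 and 17. All 5 fasted libraries were below all 6 fed ones, as for 9.28% of all genes in that direction. The log2 fold change was -0.60 ± 0.16 SE (n = 6 and 5, edgeR adjusted p = 0.016). On HFD Bscl2 was at 209, 228, 325 and 202 CPM fed and at 166, 176, 166 and 143 CPM fasted. These groups did not overlap (6.21% of all genes in that direction), yet the change did not pass (-0.57 ± 0.19, edgeR adjusted p = 0.166).

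The Bscl2 call on Ensure was kept when each of the 11 libraries was left out in turn (edgeR log2 fold change -0.70 to -0.50, adjusted p = 0.0084 to 0.0318), Ensure fasted 5 included. It was lost without the 5 tract-rich libraries (-0.41, adjusted p = 0.132), without all 8 tract- or epithelial-rich ones (-0.47, adjusted p = 0.138) and with lane as a term (-0.58, adjusted p = 0.156). Within lane 5 Bscl2 went from 379.8 CPM (1 library) to a mean of 239.5 CPM (4), and within lane 6 from a mean of 359.9 CPM (4) to 255.4 CPM (1). Bscl2 shares 6.75% of its exon bases with Gng3 on the opposite strand, and without the strand setting, reads of the pair in that stretch cannot be told apart.

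Cav1, the main protein of caveolae, had the second highest level per kilobase in the fed groups and in the Ensure fasted group. On HFD it was at 2863, 4022, 3798 and 3472 CPM fed and at 2491, 2150, 2517 and 1720 CPM fasted, without overlap, and the change missed the threshold (log2 fold change -0.67 ± 0.21 SE, edgeR adjusted p = 0.14). The groups did not overlap in that direction for 6.21% of all genes. DESeq2 called Cav1 lower (-0.65, adjusted p = 0.037), where it called 634 genes in either direction against 195 by edgeR. The edgeR fit without the 8 tract- or epithelial-rich libraries also called it (-0.86, adjusted p = 0.0413). That fit called 2.39% of all genes lower, against 1.03% in the main fit. Its HFD fasted group was only HFD fasted 23 and 28, and HFD fasted 28 had the lowest Cav1 level on HFD. On Ensure Cav1 ran from 3746 to 4338 CPM fed and was at 2535, 1634, 3961, 3385 and 3557 CPM in Ensure fasted 2, 5, 7, 8 and 17. The groups overlapped, and the log2 fold change was -0.44 ± 0.18 (edgeR adjusted p = 0.0914). Without the tract-rich libraries, Ensure fasted 2 and 5 among them, it was -0.15 (adjusted p = 0.618). The 10 endothelial markers, another cell type with much caveolin, summed to 1489 to 2073 CPM in HFD fed, 1143 to 1680 CPM in HFD fasted, 1611 to 2243 CPM in Ensure fed and 1162 to 2604 CPM in Ensure fasted libraries, and their part in the Cav1 level was not tested.

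The fasting responses of the 10 genes were not shown to differ between the diets. The difference of the responses had 0 of the 10 called by edgeR, 0 at an unadjusted p under 0.05 and 0 by DESeq2, where edgeR called 0% of all genes, 7.71% were at an unadjusted p under 0.05, and DESeq2 called 70 genes. For Plin5 the difference, Ensure minus HFD, was -0.17 with a 95% interval of -0.84 to 0.49 on the log2 scale, and for Bscl2 it was -0.03 with an interval of -0.56 to 0.49. These intervals do not show that the responses were alike.

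Between the diets, seipin stood nearest to a difference. Among fed libraries 0 of the 10 were called by edgeR, where 4.26% of all genes were. At an unadjusted p under 0.05 there was 1 of the 10, where 2981 of the 16015 genes were. DESeq2 called the same 1 gene of the 10, and 1540 genes in all. That gene was Bscl2, with a mean of 369 ± 27.2 CPM on Ensure and 241 ± 57.3 CPM on HFD (SD, n = 6 and 4, log2 fold change 0.61 ± 0.17 SE, edgeR adjusted p = 0.0556). HFD fed 25, at 325 CPM, overlapped the lowest Ensure fed library, at 323 CPM, and the call was made without HFD fed 25 (0.79, adjusted p = 0.0141). In lane 7, which held both diets, the 1 Ensure fed library had 392 CPM. Among fasted libraries edgeR called 0 of the 10, where 2.82% of all genes were called. An unadjusted p under 0.05 was found for 3 of the 10 and for 3253 of the 16015 genes. DESeq2 called 1 of the 10, Bscl2, and 1343 genes in all. The log2 fold changes, Ensure against HFD, were 0.58 ± 0.18 for Bscl2 and 0.44 ± 0.20 for Cav1 (edgeR adjusted p = 0.088 and 0.227), and -0.86 ± 0.37 for Plin2 (adjusted p = 0.205). Without the 5 tract-rich libraries 3 of the 10 were called higher on Ensure after fasting, where that fit called 2.79% of all genes higher and 1.18% lower: Cidec (0.80, edgeR adjusted p = 0.0263), Bscl2 (0.80, adjusted p = 0.0241) and Cav1 (0.70, adjusted p = 0.0373). That fit set only Ensure fasted 7, 8 and 17 against HFD fasted 23, 26 and 28. It left out HFD fasted 24, the highest of its group for Cidec and Bscl2, and Ensure fasted 5, the lowest of its group for all 3. The fasted libraries of the 2 diets shared no lane, and with lane as a term edgeR called 0 of all genes here.

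The lipases of the droplet and their regulators changed on both diets in part. Of 8 listed genes, 1 was called higher and 1 lower on HFD, where 0.187% and 1.03% of all genes were, and 0 higher and 4 lower on Ensure, where 10.6% and 9.77% were. The 4 Ensure calls became 1 with lane as a term, where 1.62% of all genes were called higher and 3.12% lower. They became 2 without the tract-rich libraries, where 3.23% and 4.13% were. The HFD calls became 0 higher and 1 lower without the tract-rich libraries, where 0.116% and 0.804% of all genes were. With the 2 groups fitted alone they became 0 in either direction. Pnpla3, a droplet protein that feeding induces, fell on both (log2 fold change -1.82 on HFD, edgeR adjusted p = 0.00373, and -1.39 on Ensure, adjusted p = 0.000465). Abhd5, the lipase activator that Plin1 holds, fell on Ensure, with means of 196 ± 14.6 CPM fed and 121 ± 33.3 CPM fasted (SD, n = 6 and 5; change of -0.70 in log2, edgeR adjusted p = 0.00623). G0s2, an inhibitor of the same lipase, fell on Ensure too (-0.72, edgeR adjusted p = 0.00682). Both calls were lost with lane as a term, and that of Abhd5 also without the tract-rich libraries. Hilpda, another lipase inhibitor, rose on HFD from 18.7, 18.7, 28.9 and 21.1 CPM to 48.0, 54.5, 44.0 and 70.1 CPM (log2 fold change 1.31, edgeR adjusted p = 0.024). The Hilpda call was lost in 6 of 8 omissions of a single library (adjusted p = 0.0361 to 0.0803) and without the tract-rich libraries. In Ensure fasted libraries Hilpda stood at 10.7 to 22.8 CPM, lower than in HFD fasted ones (-1.66, edgeR adjusted p = 0.00296). Pnpla3 was higher on Ensure than on HFD both fed (1.45, edgeR adjusted p = 0.00346) and fasted (1.88, adjusted p = 0.00131). With lane as a term these 3 differences between the diets did not pass.

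Enzymes and proteins of the droplet surface moved in both directions. Of 24 tested genes, 0 were called higher and 2 lower on HFD (0.187% and 1.03% of all genes), and 4 higher and 4 lower on Ensure (10.6% and 9.77% of all genes). At an unadjusted p under 0.05, 2 were higher on HFD, and DESeq2 called 0 of them. In either direction 2375 of the 16015 genes had such an unadjusted p. The 2 HFD calls became 1 with lane as a term or without the tract-rich libraries, where 0.325% and 0.804% of all genes were called lower. The Ensure calls became 3 higher and 1 lower with lane, where 1.62% and 3.12% of all genes were. Without the tract-rich libraries they became 3 higher and 2 lower, where 3.23% and 4.13% of all genes were. Dgat2, which makes triglyceride at the droplet, fell from 2732 ± 781 to 820 ± 142 CPM on HFD (SD, n = 4 and 4) and from 4724 ± 452 to 1322 ± 494 CPM on Ensure (n = 6 and 5), with edgeR adjusted p = 0.00782 and 0.000104. Ldah, a droplet-bound hydrolase, fell on HFD (log2 fold change -0.60, edgeR adjusted p = 0.0376) and on Ensure (-0.43, adjusted p = 0.0162). Its HFD call was lost in 7 of 8 omissions of a single library (adjusted p = 0.0489 to 0.177), and both calls were lost with lane as a term and without the tract-rich libraries. Tmem159 (promethin, LDAF1), the partner of seipin at new droplets, rose on Ensure from a range of 21.7 to 25.9 CPM to 37.2, 72.8, 48.2, 39.9 and 44.2 CPM in Ensure fasted 2, 5, 7, 8 and 17 (log2 fold change 1.00, edgeR adjusted p = 0.000472). On HFD Tmem159 was at 25.2 to 43.8 CPM fed and 31.0 to 39.7 CPM fasted, and the difference of the 2 responses, Ensure minus HFD, did not pass (0.99, edgeR adjusted p = 0.351). Hsd17b11, a droplet dehydrogenase, rose on Ensure (0.61, edgeR adjusted p = 0.00144) and was lower on Ensure than on HFD in fed libraries (-0.72, adjusted p = 0.0033). The rise was not called without the tract-rich libraries, nor was the diet difference with lane as a term.

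Of 8 tested genes of caveolae other than Cav1, 0 were called on HFD by edgeR, 3 were lower at an unadjusted p under 0.05 and DESeq2 called 1, where 1.03% of all genes were called lower by edgeR and 2375 of the 16015 genes had an unadjusted p under 0.05 in either direction. On Ensure 2 fell, where 9.77% of all genes did, and 1 of them, Prkcdbp, was also called with lane as a term and without the tract-rich libraries. Those fits called 3.12% and 4.13% of all genes lower. Cav2, which assembles with Cav1 and lies next to it on the chromosome, had means of 1177 ± 105 CPM fed and 785 ± 241 CPM fasted (SD, n = 6 and 5; change of -0.58 in log2, edgeR adjusted p = 0.027). Prkcdbp (cavin-3), a coat protein of caveolae, had 459 ± 41.5 CPM fed and 222 ± 56.9 CPM fasted, without overlap, as for 9.28% of all genes in that direction (-1.05, edgeR adjusted p = 0.000518). Of 9 nuclear receptors and partners known to act on droplet genes, Pparg and Ppara among them, 0 were called on HFD by edgeR, at an unadjusted p under 0.05 or by DESeq2. On Ensure 1 of the 9 fell, where 9.77% of all genes did, so that the count is close to the background. It was the orphan receptor Esrra (-0.54, edgeR adjusted p = 0.0173). That call was lost with lane as a term, without the tract-rich libraries and without all 8 tract- or epithelial-rich ones.

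Across the 19 libraries, the genes most like each of the 10 were found among 9771 tested genes with a mean of at least 10 CPM. Likeness is the root mean square difference of log2(CPM + 1) after centring each gene, where a smaller value means a closer match. Plin1 and Fitm2 were each other's nearest (0.134), and the second nearest to Plin1 was Lipe, hormone-sensitive lipase (0.136). Cav1 was nearest to Cav2 (0.0928), and Bscl2 to Cd320 and Ldha (both 0.131). Cidec was nearest to Aifm2 (0.132), itself a droplet protein. Plin2 was nearest to Mmp19 (0.204), a matrix metalloproteinase, and Pla2g15 (0.267), a lysosomal phospholipase. Plin3 was nearest to Atp6v0e (0.0827) and Plin4 to Mst1r (0.162). Neither Plin5 nor Fitm1 had a close match. The nearest to Plin5 was Acer2, an alkaline ceramidase, at 0.296, beside a root mean square of 0.543 for Plin5 itself. For Fitm1, near the floor, it was Acsl3 (among 9772 genes), at 0.176 beside 0.226. The libraries share tract, epithelial and macrophage content, so likeness here is a description of these 19 libraries.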

How the data were processed

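Per the labels' protocols, polyadenylated RNA of whole perigonadal fat was made into TruSeq libraries and sequenced on a HiSeq2000. The authors deposited whole-number read counts per gene symbol for each library, not normalized; the tools named in the submitters' processing notes are HTSeq 0.6.1, TopHat2 2.1 and bcl2fastq 1.8.4, with build mm9 and no strand setting. HTSeq's summary lines were kept out of library sizes: reads outside genes were 13.01 to 17.32%, ambiguous 0.695 to 0.893% and not unique 20.67 to 27.7% of a library. Floors of 3 counts cover counting error only.

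Groups came from the labels. All 19 libraries and 4 groups were fitted in 1 model with edgeR 4.0.16 (R 4.3.3): TMM scaling, filterByExpr at a minimum count of 10, the quasi-likelihood test and adjusted p over 16015 genes. Standard errors are the log2 fold change over the square root of F. Levels are TMM-scaled CPM. The test was run on counts simulated from each gene's fitted spread. The simulated counts held no outlying library and no lane effect, so that run cannot show how the test behaves with either. In each of the 37 same-group pairs the chi-square per gene was 7.06 or more, so no pair differed by counting error alone. This check cannot tell whether libraries came from the same animal. Exon lengths, neighbours and overlaps came from GENCODE M21 on GRCm38 and promoters from RefSeq, matched by symbol for 10 of 10 genes.

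The 10 genes and all lists were chosen with earlier results of these data known. All 10 are named, and of the 4 pathway lists genes called in a contrast could be named, smallest p first. The text departs from that order on Ensure, where not every called gene was named. Spg20 (log2 fold change 0.53, edgeR adjusted p = 0.00125) had a smaller p than Hsd17b11. Dgat1 (-0.69, edgeR adjusted p = 0.0113) had a smaller p than Ldah. Alternatives were DESeq2 1.42.0, its size factors in edgeR, no scaling beyond library size, no filter or a minimum count of 50, a term for lane, a fit of only the 2 groups compared, and leaving out each library; leaving out the tract-rich and epithelial-rich libraries was chosen after seeing the data.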

Additional observations from a re-analysis of the deposited data

Results flagged for a closer look

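Within groups, 2 values of the 10 genes stood far from the rest by Dixon's test at 95%. Both were the lowest of their group and both were in Ensure fasted 5: Plin1, at 588.9 CPM against 1092 to 1297 CPM in the other 4, and Bscl2, at 137.1 CPM against 255 to 303 CPM. Of 40 gene and group pairs checked, chance would flag about 1 in 20. In the same library the adipocyte markers summed to 19460 CPM, against 32600 to 53530 CPM in the other 4, and the tract markers to 9913 CPM, against 26.9 to 1117 CPM. The part of these in both values was not tested.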

How the results depend on the processing

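With HFD the count of 1 of the 10 genes called became 2 with DESeq2 and 0 with no filter, with lane as a term, with the 2 groups alone and without the tract-rich libraries, and 0 to 1 with each library left out. With Ensure the 2 calls became 0 with lane as a term and 1 without the tract-rich or without the tract- or epithelial-rich libraries, and 2 to 3 with each library left out. Between fed diets 0 calls became 1 with either other scaling, a stricter filter, DESeq2, the 2 groups alone or without the tract-rich libraries (0 to 1 with each library left out). Between fasted diets 0 became 1 with DESeq2 and 3 without the tract-rich or without the tract- or epithelial-rich libraries (0 to 2 with each library left out). The difference of responses kept 0 throughout. Over all genes, HFD fasting went from 195 calls to 634 with DESeq2, 62 with lane, 1 with the 2 groups alone and 910 without the tract- or epithelial-rich libraries (23 to 141 with each library left out), and Ensure fasting from 3255 to 760 with lane, 1145 without the tract-rich and 772 without the tract- or epithelial-rich libraries. Between fed diets 682 calls became 1540 with DESeq2, 2 with lane, 2933 with the 2 groups alone and 213 without the tract- or epithelial-rich libraries (239 to 878 with each library left out). Between fasted diets 452 became 1343 with DESeq2, 0 with lane, 1 with the 2 groups alone and 1598 without the tract- or epithelial-rich libraries (209 to 767 with each library left out). In the difference of responses 0 became 70 with DESeq2 and 1 without the tract- or epithelial-rich libraries. The cause was not tested. Both other scalings moved the median of all genes by at most 0.0529 on the log2 scale.

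Signs turned only in comparisons where the gene was not called, given as log2 fold changes. HFD fasting: Plin3 0.054 without the tract-rich and 0.23 without the tract- or epithelial-rich libraries (-0.20 to 0.064 with each library left out), Plin4 0.0078 with DESeq2 size factors, 0.048 with library size, 0.0057 with DESeq2 and 0.021 with the 2 groups alone (-0.28 to 0.22), and Fitm1 -0.24 to 0.79. Ensure fasting: Plin3 0.0039 and Plin4 0.0062 with library size, and Plin4 0.031 with lane, 0.10 without the tract-rich and 0.095 without the tract- or epithelial-rich libraries (-0.13 to 0.048). Difference of responses: Plin3 -0.014 with DESeq2 size factors, -0.013 with DESeq2, -0.022 with lane, -0.062 without the tract-rich and -0.29 without the tract- or epithelial-rich libraries (-0.13 to 0.11), Plin4 0.058 with lane and 0.39 and 0.65 without those sets (-0.30 to 0.25), Plin5 0.13 and 0.29 without them (-0.44 to 0.12), Bscl2 0.20 and 0.26 (-0.21 to 0.043), and with each library left out Plin1 -0.22 to 0.31, Cidec -0.13 to 0.27 and Fitm2 -0.21 to 0.41. Fed diets: Plin1 -0.0089 without the tract- or epithelial-rich libraries, Fitm1 -0.88 with lane, Fitm2 0.016 with DESeq2 size factors, 0.016 with DESeq2, 0.020 with lane and 0.0030 with the 2 groups alone (-0.049 to 0.10), and Plin2 -0.088 to 0.25. Fasted diets: Plin3 -0.15 without the tract- or epithelial-rich libraries (-0.039 to 0.23), Plin4 0.042 without the tract-rich and 0.21 without the tract- or epithelial-rich libraries, and with each library left out Plin1 -0.11 to 0.37, Plin5 -0.13 to 0.39, Fitm1 -0.66 to 0.31 and Fitm2 -0.17 to 0.40. No paired analysis was possible because the groups share no replicate numbers. At 2 to 18 counts per library, depth limits Fitm1 most.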

Other observations

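HFD fasted 24 and 28 lay at opposite ends of their group for most of the 10 genes, a pattern seen after the values were known. HFD fasted 24 had the highest level in its group for 7 of the 10 genes and the lowest for 2, while HFD fasted 28 had the lowest for 8 and the highest for 2, which were Plin2 and Plin3. On Ensure, Ensure fasted 7 was highest for 7 of the 10 and Ensure fasted 5 lowest for 7, with Plin3 and Plin5 of Ensure fasted 5 inside the range of the other libraries. Cd68, a lysosomal protein of macrophages, was at 129 CPM in HFD fasted 24 and at 1426 CPM in HFD fasted 28. It is 1 of the 12 macrophage markers, and others varied less in HFD fasted libraries. Mrc1 ran from 174 to 300 CPM and Csf1r from 225 to 510 CPM. Of the 12, edgeR called 0 with fasting on HFD, and their part in the pattern was not tested.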
